A study of Sus scrofa with 24 samples.

Results

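The urea cycle and the breakdown of amino acids were followed in RNAseq data from pig liver through a list of 55 genes, listed by name for their known place in these pathways. Of these, 31 had a row among the 13463 genes of the tables, and all 31 passed the filter on low counts that left 8279 genes for testing. The rows of 28 carried their symbol, and 3 (ASL, PRODH2 and BCKDHA) had an identifier only and were named through a reference table. The other 24 listed genes were not analysed here, among them CPS1, NAGS, GLUD1, HPD, KMO, OAT, CBS, MAT1A, PCCA and PCCB, so most pathways were seen in part.

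The liver takes most amino acids apart, and skeletal muscle begins the breakdown of the branched-chain ones. Aminotransferases move the amino group to glutamate, ammonia is released from glutamate and glutamine, and the urea cycle turns ammonia into urea through ornithine, citrulline, argininosuccinate and arginine. The carbon skeletons go to glucose, ketone bodies or the citric acid cycle. Androgens are known as anabolic hormones that favour the retention of nitrogen.

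The libraries came from 24 hybrid pigs, 1 per animal. Repeated intramuscular injections of Sustanon, which contains testosterone esters, were given at 4 mg/kg of body weight to 3 castrated boars (barrows), 3 sows (gilts) and 2 uncastrated boars, and of Myodin, which contains a nandrolone ester, at 5 mg/kg to 2 castrated boars, 3 sows and 3 uncastrated boars. The 8 control pigs, with no dose of either steroid, were 3 castrated boars, 3 sows and 2 uncastrated boars. By the authors' account each group had pens of its own, and the controls were kept in a separate room. Treatment therefore cannot be told apart from pen or room in these data. Uncastrated boars can make testosterone of their own, so each treatment was also examined in the pigs without testes, that is, in castrated boars and sows. Different pigs stand in each group, and pigs are named here by group and number.

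Total counts per library ranged from 9267780 to 14017276. The summed level of 5 hepatocyte markers lay between 82011 and 203708 counts scaled to library size (CPM), and 2 genes of skeletal muscle together reached at most 2.44 CPM, so the tissue label held. Counts of the Y-linked genes EIF1AY and KDM5D went against the labelled sex in 3 control libraries: control castrated boar 15 had 1 and 0 counts, control sow 16 had 476 and 35, and control sow 18 had 434 and 95. Values without these 3 libraries are given after the Sustanon results and within several of the comparisons that follow, but not for every gene. The column of Sustanon sow 6 carries the covariate code of the Sustanon castrated boars, and its 0 counts of EIF1AY and KDM5D were those of a sow, so the sample label was followed. In bulk tissue, fewer cells of a type and less RNA per cell cannot be told apart.

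Levels between genes were compared in TPM, which account for gene length and library size. ASS1, which joins citrulline and aspartate in the urea cycle, was the most abundant measured member, with a median of 4454 TPM over the 24 pigs and a range of 2515 to 6345, and it ranked 27 among all genes of the tables. BHMT, which remethylates homocysteine with betaine, followed with a median of 2393 TPM, and the range of 1658 to 3844 overlapped that of ASS1. TDO2, the entry enzyme of tryptophan breakdown, had a median of 1104 TPM and ranged from 630.5 to 3200. These 3 genes were followed by GNMT at 946.1, ARG1 at 794.7, CTH at 575.0, UROC1 at 540.5 and TAT at 531.6 TPM, whose ranges overlapped. The lowest was GPT, the cytosolic alanine aminotransferase, with a median of 14.5 TPM and a range of 7.91 to 25.1. All measured members together took 1.54% to 2.45% of the counts of a library, with medians of 1.85% in controls, 1.80% with Myodin and 1.97% with Sustanon.

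**Figure D1:**
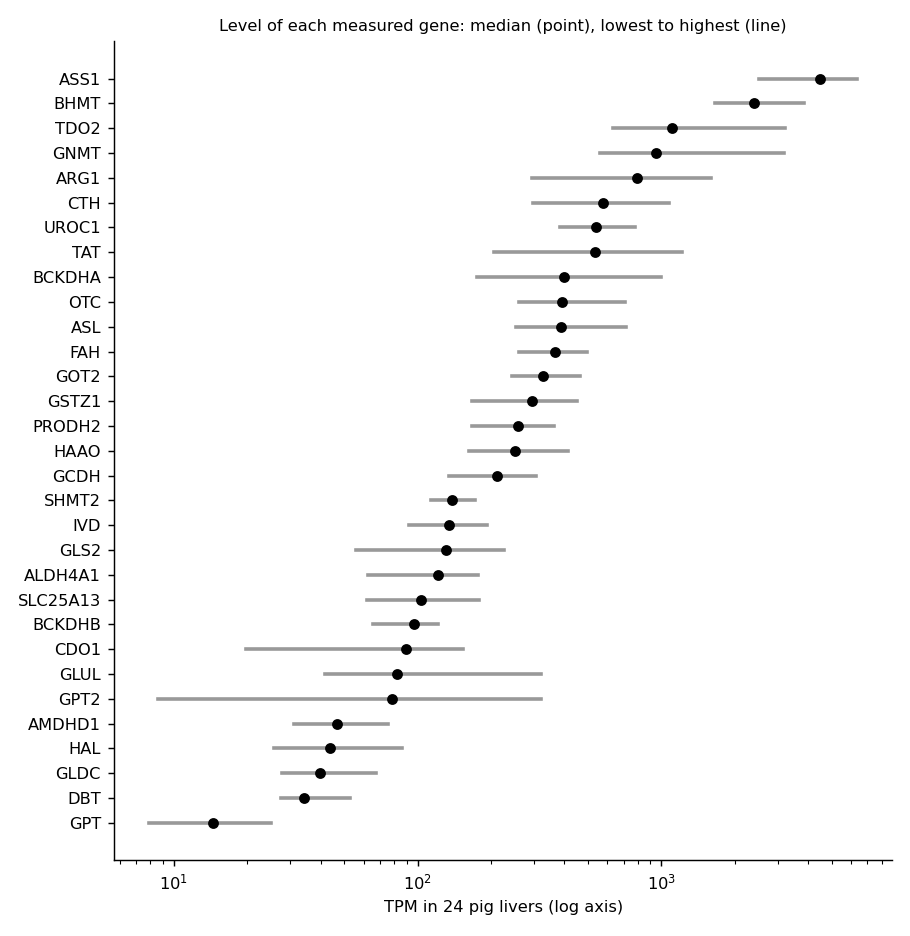
Level of each of the 31 measured genes in TPM on a log axis, with the median over 24 pigs as a point and the lowest to highest pig as a line. ASS1 (median 4454) and BHMT (2393) lie at the top and GPT (14.5) at the bottom, and GPT2, with 8.60 to 320.0 TPM, has a wide line.

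With Sustanon, BCKDHA and DBT of branched-chain breakdown, TDO2 and HAAO of tryptophan breakdown and ARG1 of the urea cycle differed from the controls. These genes did not move in one direction. BCKDHA, HAAO and TDO2 rose, and ARG1 and DBT fell. These 5 of the 31 members passed an adjusted p of 0.05 between the 8 Sustanon and the 8 control pigs, beside 5.07% of all genes tested (3.39% higher and 1.68% lower). BCKDHA and TDO2 also changed by at least 1 on the log2 scale, beside 1.56% of all genes. Without adjustment, 12 members had a p under 0.05, 8 higher and 4 lower, beside 19.6% of those tested. The median log2 fold change was 0.09 over the members and -0.01 over all genes tested, with 19 members above 0 and 12 below.

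**Figure D2:**
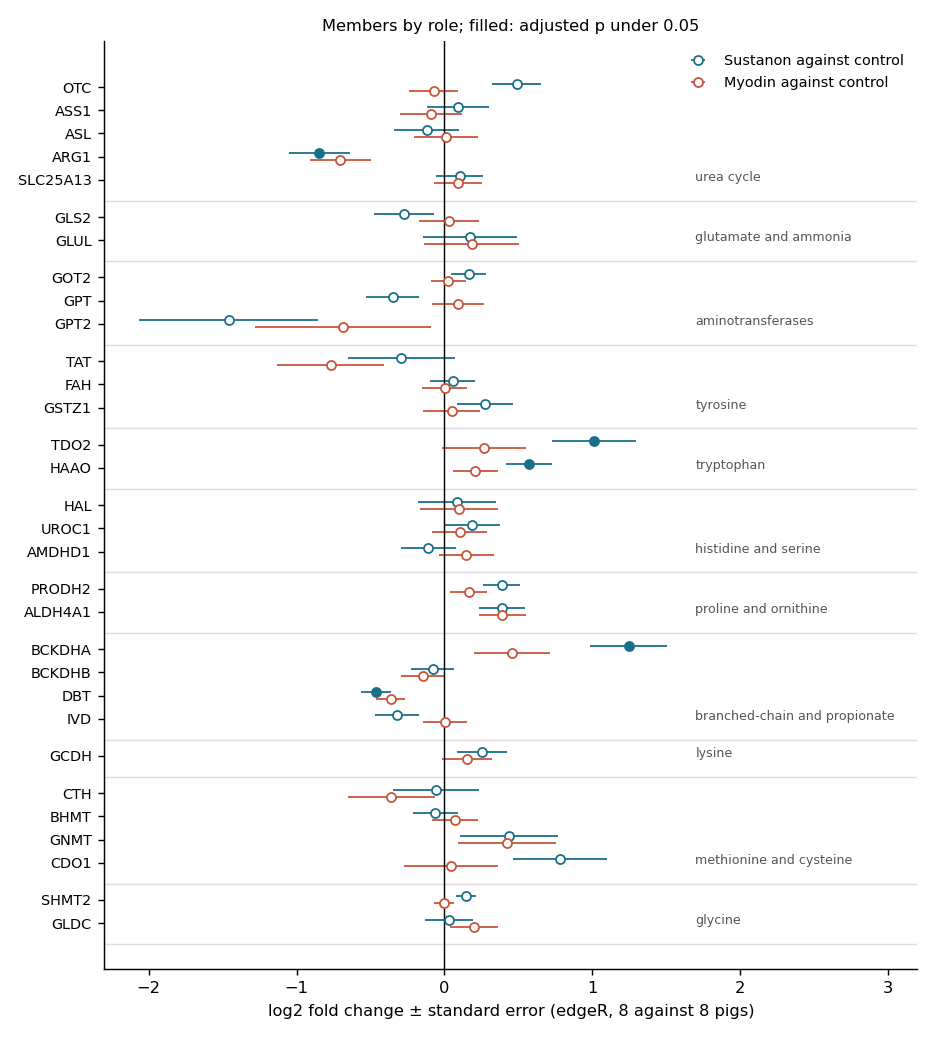
Log2 fold change with its standard error for the 31 members, ordered by role, for Sustanon (blue) and Myodin (red) against the same 8 control pigs. Filled points have an adjusted p under 0.05 by edgeR: BCKDHA, TDO2 and HAAO to the right and DBT and ARG1 to the left, all of them Sustanon.

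The branched-chain pathway held both the largest rise and the smallest p of a fall. BCKDHA and BCKDHB encode the alpha and beta subunits of the first component of the mitochondrial branched-chain ketoacid dehydrogenase, the committed step in breaking down leucine, isoleucine and valine, and DBT encodes the core of its second component. BCKDHA lies on chromosome 6 of Sscrofa11.1 in the reference annotation (chr6:49381995-49398745), BCKDHB on chromosome 1 and DBT on chromosome 4.

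BCKDHA had 180.6 to 487.5 CPM in the control pigs (median 246.3), 235.6 to 773.5 with Myodin (median 305.8) and 319.7 to 863.0 with Sustanon (median 674.0). Among the controls, the highest were both uncastrated boars, at 445.7 and 487.5 CPM, and the 6 pigs without testes stayed at 180.6 to 283.2. With Sustanon, 7 of 8 pigs were above every control, and castrated boar 3 (319.7 CPM) lay between the control pigs without testes and the control uncastrated boars. The log2 fold change was 1.25 (SE 0.26, n = 8 and 8, edgeR adjusted p = 0.0114), a 2.37-fold higher level. Between the pigs without testes the groups did not overlap, and the log2 fold change was 1.49 (SE 0.21, n = 6 and 6, edgeR adjusted p = 0.000223).

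DBT had 80.9 to 129.1 CPM in the control pigs (median 114.5), 71.2 to 94.8 with Myodin (median 85.4) and 66.6 to 98.8 with Sustanon (median 79.5). Again the control uncastrated boars were apart from the other controls, here at the low end, with 83.4 and 80.9 CPM against 105.8 to 129.1 in the 6 control pigs without testes. The log2 fold change with Sustanon was -0.46 (SE 0.10, edgeR adjusted p = 0.0118), and 5 of 8 treated pigs were below every control. Between the pigs without testes it was -0.54 (SE 0.09, edgeR adjusted p = 0.00119), and the 6 treated pigs (73.4 to 98.8 CPM) were all below the 6 controls.

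BCKDHB did not pass the test, with a log2 fold change of -0.08 (SE 0.15) and an interval of 2 SE on each side of -0.37 to 0.21. IVD, the isovaleryl-CoA dehydrogenase of leucine breakdown, had 213.0 to 363.8 CPM in controls and 175.0 to 366.6 with Sustanon, with a log2 fold change of -0.32 (SE 0.15) that passed only without adjustment (edgeR adjusted p = 0.240). The ratio of BCKDHA to DBT in TPM was 4.03 to 17.2 in the controls (median 5.92), 8.17 to 25.1 with Myodin (median 10.2) and 11.8 to 34.9 with Sustanon (median 25.7). In control castrated boars and sows it was 4.03 to 6.49, below every other pig, and in the 2 control uncastrated boars it was 15.4 and 17.2. This ratio was chosen after the values of both genes were seen and was not tested.

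**Figure D3:**
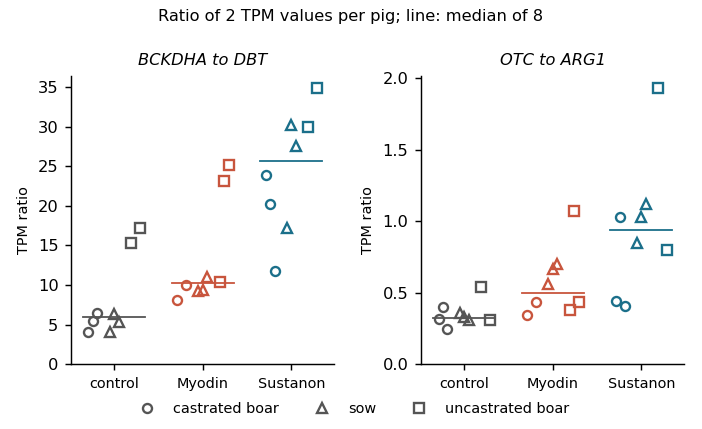
Ratio of BCKDHA to DBT and of OTC to ARG1, each in TPM, in every pig by treatment and sex class (circles castrated boars, triangles sows, squares uncastrated boars), with the median of the 8 pigs of a treatment as a line. For BCKDHA to DBT the medians are 5.92 in controls, 10.2 with Myodin and 25.7 with Sustanon, and the 2 control uncastrated boars stand at 15.4 and 17.2.

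Neighbouring genes were examined because reads of adjoining genes can be hard to assign. B3GNT8, which starts 375 bases from BCKDHA, had a log2 fold change of 1.06 with Sustanon (SE 0.24, edgeR adjusted p = 0.0129), and among pigs without testes it had 3.30 to 5.78 CPM in controls and 7.48 to 12.05 with Sustanon. Its level was thus far below that of BCKDHA. EXOSC5, at 119 bases on the other side, had a log2 fold change of 0.35 (SE 0.17, adjusted p = 0.257). Other members overlap a neighbour in the annotation, GNMT with PEX6, GLS2 with SPRYD4 and RBMS2, and GCDH with SYCE2. SPRYD4 reached up to 85.2 CPM and RBMS2 up to 121.7, beside 90.7 to 410.4 for GLS2. The part of shared reads in these values was not tested.

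In the urea cycle, ARG1, the arginase that releases urea from arginine, fell with Sustanon. ARG1 had 869.8 to 2195 CPM in the controls (median 1404), 501.6 to 1341 with Myodin (median 901.3) and 348.9 to 968.2 with Sustanon (median 839.2). Within the controls the uncastrated boars were the lowest, at 869.8 and 1070 CPM, and the 6 pigs without testes had 1227 to 2195. The log2 fold change was -0.85 (SE 0.21, n = 8 and 8, edgeR adjusted p = 0.0188), and 4 of 8 treated pigs were below every control. Between the pigs without testes it was -0.86 (SE 0.21, adjusted p = 0.0167), and all 6 treated pigs were below all 6 controls.

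OTC, the ornithine transcarbamylase that makes citrulline in mitochondria, leaned the other way, with 344.1 to 640.6 CPM in the controls (median 478.6), 347.5 to 604.5 with Myodin and 409.4 to 972.0 with Sustanon (median 732.7). In 6 of 8 treated pigs it was above every control, while castrated boars 1 and 3 (438.9 and 409.4 CPM) were within the control range. Its log2 fold change of 0.49 (SE 0.16) had an unadjusted p of 0.00635 and did not pass adjustment (edgeR adjusted p = 0.0819). OTC lies within the span of RPGR, which had 1.73 to 6.06 CPM in all 24 pigs. The ratio of OTC to ARG1 in TPM was 0.244 to 0.542 in the controls and 0.410 to 1.93 with Sustanon, and 6 of 8 Sustanon pigs, all but castrated boars 1 and 3, were above all controls. This ratio too was chosen after the values were seen.

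ASS1 had a median of 4050 CPM in the controls and 4669 with Sustanon, with ranges of 2678 to 7278 and 2711 to 7190 that overlapped almost fully. Its log2 fold change was 0.09 (SE 0.21), with -0.32 to 0.51 at 2 SE on each side. ASL, which splits argininosuccinate, and SLC25A13, which carries aspartate out of mitochondria, gave -0.12 (SE 0.22) and 0.10 (SE 0.16), and neither passed the test.

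Of the 4 members listed for tryptophan breakdown TDO2 and HAAO were measured, and both rose with Sustanon. TDO2 opens the indole ring, and HAAO, 3-hydroxyanthranilate dioxygenase, acts further along the kynurenine pathway towards quinolinate and NAD. TDO2 had 825.5 to 1436 CPM in controls (median 1110), 698.4 to 2719 with Myodin (median 923.0) and 997.3 to 3776 with Sustanon (median 2474). The 6 Sustanon pigs above all controls were the 3 sows, both uncastrated boars and castrated boar 2, and castrated boars 1 and 3 (1254 and 997.3 CPM) lay within the control range. The log2 fold change was 1.01 (SE 0.29, edgeR adjusted p = 0.0385), and the call held in 11 of 24 fits that left out a pig, with adjusted p of 0.0172 to 0.102. With Myodin, uncastrated boars 23 and 24 stood apart at 2719 and 2433 CPM, against 698.4 to 1519 in the other 6 pigs.

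HAAO had 166.6 to 266.5 CPM in controls (median 206.1), 160.6 to 334.6 with Myodin (median 234.1) and 183.4 to 422.0 with Sustanon (median 320.9). In 5 of 8 Sustanon pigs it was above every control, and the log2 fold change was 0.57 (SE 0.15, edgeR adjusted p = 0.0290), a call that held in 16 of 24 fits that left out a pig, with adjusted p of 0.0108 to 0.0659. Between the pigs without testes TDO2 gave 0.87 (SE 0.30, adjusted p = 0.0941) and HAAO 0.50 (SE 0.18, adjusted p = 0.111), and neither passed there. CTSO, 1671 bases from TDO2 on chromosome 8, had a log2 fold change of 1.06 (SE 0.28, adjusted p = 0.0259) at 7.79 to 12.6 CPM in controls and 8.66 to 42.9 with Sustanon.

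**Figure D4:**
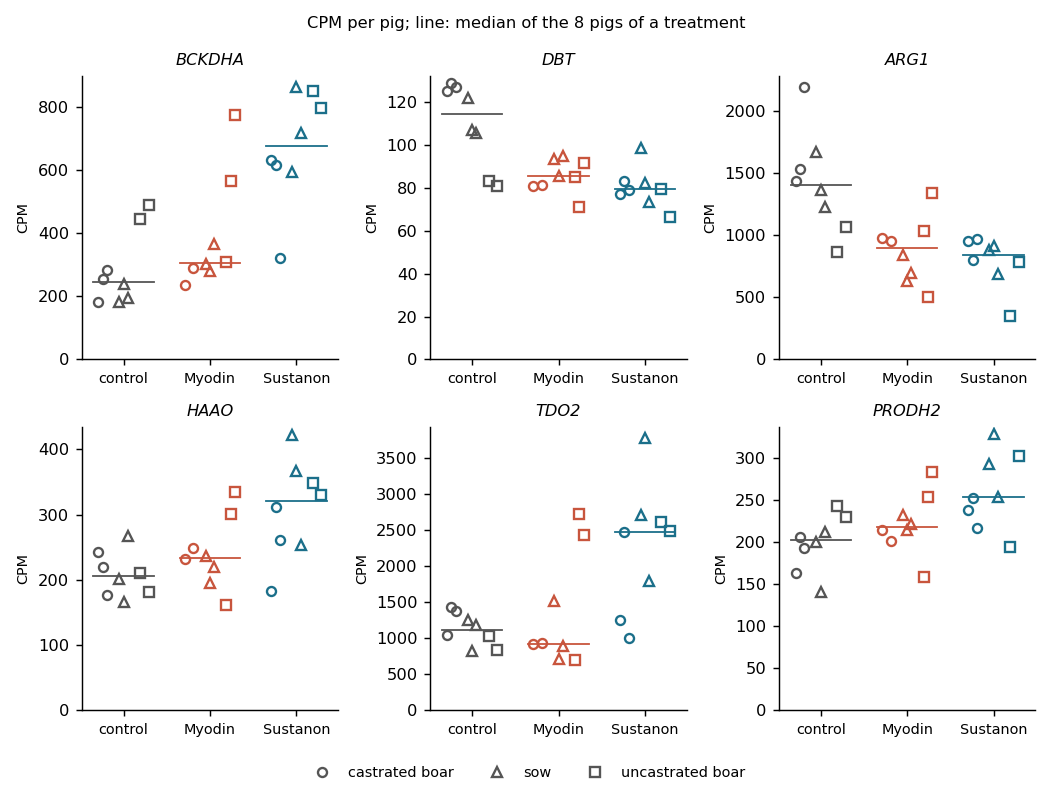
CPM of 6 genes in every pig by treatment and sex class (circles castrated boars, triangles sows, squares uncastrated boars), with the median of the 8 pigs of a treatment as a line. BCKDHA reaches 319.7 to 863.0 CPM with Sustanon, and the 2 control uncastrated boars (squares) stand above the other controls for BCKDHA and below them for DBT and ARG1.

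In the breakdown of proline and hydroxyproline, PRODH2, a hydroxyproline dehydrogenase, and ALDH4A1 were measured. ALDH4A1 makes glutamate in the last step of proline breakdown and also acts on hydroxyproline. PRODH, the proline dehydrogenase, was not analysed here. PRODH2 had 140.2 to 242.0 CPM in controls and 193.7 to 327.6 with Sustanon, and its log2 fold change of 0.39 (SE 0.12) did not pass adjustment (edgeR adjusted p = 0.0665). Between the pigs without testes, PRODH2 rose by 0.50 on the log2 scale (SE 0.14, adjusted p = 0.0355), with 216.0 to 327.6 CPM in the 6 treated pigs and 140.2 to 212.2 in the 6 controls. This call held in 17 of 24 fits that left out a pig, with adjusted p of 0.0141 to 0.103. ALDH4A1 had a log2 fold change of 0.39 (SE 0.16) with Sustanon and 0.39 (SE 0.16) with Myodin, with unadjusted p of 0.0207 and 0.0205 by edgeR and adjusted p of 0.162 and 0.584. Its levels were 131.0 to 240.1 CPM in controls, 159.5 to 347.3 with Sustanon and 183.2 to 336.2 with Myodin, which overlapped.

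Among the aminotransferases, GPT2, the mitochondrial alanine aminotransferase, varied widely. It had 35.8 to 594.0 CPM in the controls, where the 2 uncastrated boars had 43.9 and 35.8 and the 6 pigs without testes 147.9 to 594.0. With Sustanon it ranged from 16.6 to 306.0 CPM and with Myodin from 30.8 to 322.9. The log2 fold change with Sustanon was -1.46 (SE 0.61, unadjusted p = 0.0240 by edgeR, adjusted p = 0.177), and between the pigs without testes it was -1.49 (SE 0.46, adjusted p = 0.0586), with 4 of 6 treated pigs below every control. GPT and GOT2, the latter being the mitochondrial aspartate aminotransferase, gave -0.35 (SE 0.18) and 0.16 (SE 0.12), and neither passed.

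CDO1, cysteine dioxygenase, which sends cysteine towards taurine and sulfate, had 144.6 to 424.8 CPM in controls (median 204.9) and 209.9 to 573.5 with Sustanon (median 465.7). Its log2 fold change of 0.78 (SE 0.32) had an unadjusted p of 0.0216 and an adjusted p of 0.167 by edgeR, although 6 of 8 treated pigs were above every control. SHMT2, the mitochondrial enzyme that interconverts serine and glycine, varied little, with 169.6 to 218.4 CPM in controls and 210.1 to 242.1 with Sustanon. Its log2 fold change of 0.15 (SE 0.07) had an unadjusted p of 0.0362 and an adjusted p of 0.216. SHMT2 overlaps NXPH4 in the annotation.

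The remaining 19 members did not reach an unadjusted p of 0.05 with Sustanon, and their log2 fold changes lay between -0.35 (GPT) and 0.44 (GNMT). For the members with the highest level of their role, UROC1, the urocanase of histidine breakdown, gave 0.19 (SE 0.19), GCDH, the glutaryl-CoA dehydrogenase of lysine and tryptophan breakdown, 0.25 (SE 0.17), GLS2, the liver glutaminase, -0.27 (SE 0.20), and BHMT -0.06 (SE 0.15). TAT, which starts tyrosine breakdown, had 395.9 to 2519 CPM in controls and 604.3 to 2095 with Sustanon, with a log2 fold change of -0.29 (SE 0.36). For TAT, 2 SE on each side reached from -1.01 to 0.43.

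The Sustanon calls were also examined with controls left out. Such fits hold fewer pigs, and whether fewer pigs or these particular pigs changed the calls was not tested. Without control pigs 15, 16 and 18, none of the 31 members passed, nor did any of the 8279 genes, while 1199 genes had an unadjusted p under 0.05 by edgeR. BCKDHA then had a log2 fold change of 1.06 (adjusted p = 0.121), DBT -0.40, ARG1 -0.67, TDO2 1.13 and HAAO 0.60. Of the members that had passed only without adjustment, OTC gave 0.53, CDO1 0.81, PRODH2 0.40, GPT2 -1.30 and IVD -0.29, while ALDH4A1 dropped to 0.24 and SHMT2 to 0.08. Between the pigs without testes, where 4 members were called (BCKDHA, DBT, ARG1 and PRODH2, beside 5.54% of all genes) and 12 had an unadjusted p under 0.05 (19.3%), 2 of the 4 calls remained without these controls, BCKDHA at 1.46 and DBT at -0.55, while ARG1 at -0.75 (adjusted p = 0.143) and PRODH2 at 0.63 (adjusted p = 0.0882) kept folds of like size and no longer passed. In the comparison of all Sustanon pigs with the controls, leaving out control castrated boar 15 alone gave 3 called members, BCKDHA, DBT and ARG1. The share of all genes called in that fit is not given here.

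With Myodin, none of the 31 members passed adjustment against the controls, and no gene of the 8279 did (0%). At an unadjusted p under 0.05 there were 4 members, beside 7.21% of all genes: DBT (-0.36, SE 0.10, edgeR adjusted p = 0.352), ARG1 (-0.70, SE 0.21, adjusted p = 0.405), ALDH4A1 (above) and TAT (-0.77, SE 0.36, adjusted p = 0.674). DESeq2 called 0 members and 1 gene. The median log2 fold change was 0.05 over the members and 0.00 over all genes. Myodin and Sustanon were compared with the same 8 control pigs, so the likeness of DBT and ARG1 in both cannot be read as independent. Without control pigs 15, 16 and 18, Myodin gave -0.30 for DBT, -0.52 for ARG1, 0.24 for ALDH4A1 and -0.29 for TAT, and 0 members and 0 genes passed (357 genes before adjustment).

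Among the pigs without testes, Myodin gave 0 called members (0.0966% of all genes were called) and 5 at an unadjusted p under 0.05, beside 10.3% of all genes. DBT had 80.8 to 94.8 CPM in the 5 Myodin pigs against 105.8 to 129.1 in the 6 controls, without overlap, and a log2 fold change of -0.45 (SE 0.09, edgeR adjusted p = 0.0543). ARG1 had 630.0 to 980.9 CPM against 1227 to 2195, also without overlap, and a log2 fold change of -0.94 (SE 0.22, adjusted p = 0.110). TAT had 491.9 to 1092 CPM against 1075 to 2519, with a log2 fold change of -1.32 (SE 0.35, adjusted p = 0.148). ALDH4A1 (0.47, SE 0.20) and CTH, cystathionine gamma-lyase (-0.70, SE 0.32), had adjusted p of 0.403 and 0.450. DESeq2 called 3 members there, DBT, ARG1 and TAT. Its share of all genes is not given here, so this count stands without a background. Without the 3 controls DBT gave -0.47, ARG1 -0.82, ALDH4A1 0.29 and CTH -0.33, and TAT stood at 0.498 times the control level.

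Sustanon was compared with Myodin directly. No member passed adjustment by edgeR, beside 0.664% of all genes, and 8 had an unadjusted p under 0.05, beside 18.1% of all genes. OTC was higher with Sustanon by 0.56 on the log2 scale (SE 0.16, edgeR adjusted p = 0.0833), and 6 of 8 Sustanon pigs were above all Myodin pigs. BCKDHA was higher by 0.79 (SE 0.26, adjusted p = 0.116), TDO2 by 0.74 (SE 0.29), CDO1 by 0.74 (SE 0.32), HAAO by 0.36 (SE 0.15) and SHMT2 by 0.15 (SE 0.07), and GPT (-0.44, SE 0.18) and IVD (-0.32, SE 0.15) were lower. DESeq2 called OTC, and with the sex class as a covariate edgeR called BCKDHA (0.96, adjusted p = 0.00640).

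Whether the treatment effect differed between uncastrated boars and pigs without testes was tested as an interaction. For Sustanon, no member passed adjustment by edgeR (0.0362% of all genes were called) or DESeq2 and none had an unadjusted p under 0.05 (6.96% of all genes). For Myodin, no member passed adjustment (0.109% of all genes were called) by edgeR and 1 did by DESeq2, while 8 members had an unadjusted p under 0.05, beside 11.9% of all genes. The smallest p was that of TAT, whose Myodin effect was higher by 2.55 on the log2 scale in uncastrated boars (SE 0.65, edgeR adjusted p = 0.121). GNMT, glycine N-methyltransferase, gave 1.75 (SE 0.62), CTH 1.47 (SE 0.59), TDO2 1.33 (SE 0.58), ASL 1.02 (SE 0.46), ARG1 0.92 (SE 0.40), DBT 0.46 (SE 0.17) and SLC25A13 -0.75 (SE 0.29).

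Each of these values sets 3 Myodin and 2 control uncastrated boars against 5 Myodin and 6 control pigs without testes, where TAT had the log2 fold change of -1.32 given above. Without Myodin uncastrated boar 24, TAT gave 1.85 (adjusted p = 0.265), GNMT 1.10, ASL 0.65 and ARG1 0.60, and without control uncastrated boar 25 SLC25A13 gave -0.48. Without Myodin uncastrated boar 22, 2 members passed, TAT (adjusted p = 0.00979) and GNMT (adjusted p = 0.0316). No share of all genes called in that fit stands beside this count. Without control pigs 15, 16 and 18, TAT gave 2.24 and GNMT 1.57. Myodin uncastrated boar 22 had 363.1 CPM of TAT, boar 23 had 898.1 and boar 24 had 1815, while the control uncastrated boars had 395.9 and 478.6. For GNMT the 3 Myodin boars had 396.6, 1207 and 2174 CPM and the 2 control boars 411.1 and 541.8. For CTH the values were 311.8, 714.5 and 889.8 CPM against 375.8 and 377.0. Boar 22 was thus below both control boars in all 3 genes, and boars 23 and 24 were above them. The libraries of boars 23 and 24 also stood apart in some markers of other cells. CD3E, a T cell gene, had 14.4 and 14.9 CPM there and at most 10.3 in the other 22 pigs. NKG7 had 22.3 and 23.5 CPM against at most 13.8. The other measured leukocyte and Kupffer cell markers did not stand apart. CD163 had 388.1 and 270.9 CPM and CSF1R 82.6 and 66.5, against 402.6 and 109.2 in Myodin sow 10. LYZ had 0 and 7.02 CPM, against up to 8.59 in controls. ALB, albumin of hepatocytes, had 73462 and 58492 CPM, the lowest levels of the 24 pigs. The other hepatocyte markers were not all low there. TTR had 4639 and 5940 CPM, against 2691 to 4518 in the other Myodin pigs. SERPINA1 had 2146 and 2710 CPM, within the 1772 to 3465 of the other 22 pigs. APOB had 6796 and 3883 CPM, and only control sow 18 was lower than boar 24, at 3852. APOA1 had 5201 CPM in boar 23, the lowest of the 24 pigs, and 10986 in boar 24, the highest. The 5 measured of 9 listed leukocyte and Kupffer cell markers summed to 298.8 to 534.3 CPM with Myodin and 231.7 to 396.9 in controls. Their part in these results was not tested.

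**Figure D5:**
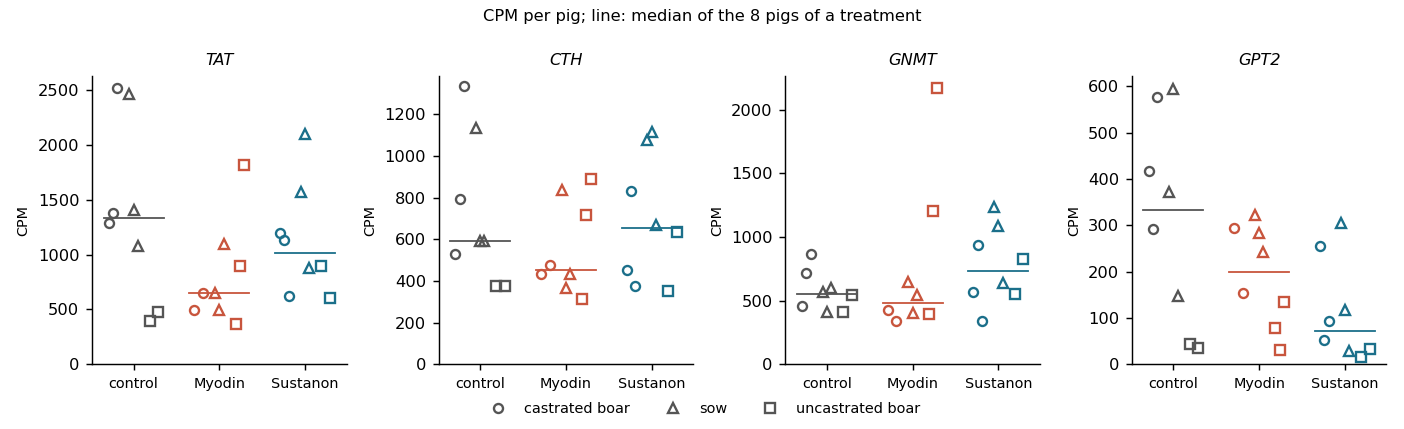
CPM of TAT, CTH, GNMT and GPT2 in every pig by treatment and sex class (circles castrated boars, triangles sows, squares uncastrated boars), with the median of the 8 pigs of a treatment as a line. In the Myodin column 2 of the 3 squares lie above the control squares for TAT, CTH and GNMT, and for GPT2 the squares of all 3 treatments lie between 16.6 and 133.7 CPM.

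The pigs' own testes gave another view. Uncastrated boars were compared with castrated boars among the pigs without Sustanon (5 and 5 pigs, untreated and Myodin weighted equally). BCKDHA was the 1 member called, beside 0.676% of all genes, and 3 members had an unadjusted p under 0.05, beside 15.8% of all genes. BCKDHA had 309.2 to 773.5 CPM in the 5 uncastrated boars and 182.3 to 289.3 in the 5 castrated ones, without overlap, with a log2 fold change of 1.01 (SE 0.22, edgeR adjusted p = 0.0400). The call held in 11 of 24 fits that left out a pig, with adjusted p of 0.00394 to 0.175, the highest without control uncastrated boar 27 (log2 fold change 0.98). Without pigs 15, 16 and 18 the log2 fold change was 1.08 (adjusted p = 0.0678). GPT2 had 30.8 to 133.7 CPM in uncastrated and 154.6 to 576.2 in castrated boars, also without overlap, with a log2 fold change of -2.45 (SE 0.57, adjusted p = 0.0501). DBT gave -0.30 (SE 0.10, adjusted p = 0.127). This comparison shares its castrated and uncastrated controls with those of Sustanon, so the values are given side by side only.

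Other genes of amino acid metabolism were described from a list of related enzymes and carriers, of which 47 were tested. With Sustanon, 7 of the 47 passed adjustment, 3 higher and 4 lower, beside 5.07% of all genes tested, and the median log2 fold change over the 47 was -0.12. Without control pigs 15, 16 and 18 none of them passed. KYAT1, a kynurenine aminotransferase, fell by 1.83 on the log2 scale (SE 0.40, edgeR adjusted p = 0.0118) and KYAT3, which has a like activity, rose by 0.29 (SE 0.08, adjusted p = 0.0368).

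MPST, which handles sulfur from cysteine, fell by 1.11 (SE 0.31, adjusted p = 0.0347), and SLC3A1, part of a cystine carrier, fell by 1.58 (SE 0.40, adjusted p = 0.0219). PSPH, the last step of serine synthesis, rose by 1.46 (SE 0.39, adjusted p = 0.0290) from a low level of 0.422 to 2.34 CPM in controls. AGMAT, agmatinase, rose by 0.63 (SE 0.19, adjusted p = 0.0486). None of the 47 passed with Myodin against the controls or in the comparison of Sustanon with Myodin by edgeR, with 3 and 8 at an unadjusted p under 0.05, beside 7.21% and 18.1% of all genes.

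Of 11 measured regulators of these pathways, 0 passed with Sustanon, and 3 had an unadjusted p under 0.05 by edgeR, beside 19.6% of all genes: SESN2, a stress-induced sensor protein (-0.61, SE 0.22), CEBPA, a hepatocyte transcription factor (-0.40, SE 0.18), and CREB3L3, a hepatic transcription factor (0.28, SE 0.12). Several members are known to be placed unevenly along the liver lobule, so marker sums were set beside the results. SLC1A2, a glutamate carrier of the cells around the central vein, rose with Sustanon by 2.32 (SE 0.54, adjusted p = 0.0163), at 1.22 to 5.35 CPM in controls and 2.60 to 21.4 with Sustanon. The 6 portal-side markers summed to 3661 to 9075 CPM with Sustanon and 4695 to 10683 in controls, and the 5 central-vein markers to 134.4 to 737.9 (median 235.6) and 302.8 to 704.7 (median 457.7). Of the 6 portal markers 5 are members (ARG1, ASS1, ASL, HAL and GLS2), as is GLUL among the central-vein markers. Of the 5 central-vein markers 2 were higher and 3 lower with Sustanon, with a median log2 fold change of -0.29, and CYP1A2, a cytochrome P450 of those cells, gave -1.91 (SE 0.63, adjusted p = 0.0762). Red cell, leukocyte, stromal, endothelial and bile duct sums overlapped between Sustanon and control pigs as well. Between Sustanon and Myodin, the 4 stromal markers had a median log2 fold change of 0.84, with 3 at an unadjusted p under 0.05 and 0 called by edgeR, and NKG7, a gene of cytotoxic lymphocytes, was lower with Sustanon (-0.82, SE 0.19, adjusted p = 0.0399). The part of cell composition in the members' values was not tested.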

How the data were processed

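Liver RNA of 24 pigs was sequenced from stranded poly-A libraries. The authors trimmed the reads, aligned them with STAR 2.5 (submitters' processing notes, build Sscrofa11.1) and deposited raw counts per gene, and log2(TPM + 1) values of the same libraries. The counting tool and its strand setting are not given in the sources used here. Rows were named by the deposited symbol (3779 have none), and 3 members by identifier. Coordinates and neighbouring genes are from the RefSeq annotation of Sscrofa11.1. The authors' DESeq2 was run as an alternative.

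Counts were tested in R 4.3.3 with edgeR 4.0.16 (filterByExpr, TMM, quasi-likelihood, two-sided), in a single fit of 3 treatments, and in fits of 6 groups (treatment by testes) and of 9 groups (treatment by sex class). P-values were adjusted by Benjamini-Hochberg over all 8279 genes and called under 0.05. CPM are TMM-scaled. Standard errors (SE) of edgeR fold changes were taken as the fold change divided by the square root of the F statistic. Alternatives were DESeq2 1.42.0, limma 3.58.1 on the deposited log2 values, RLE, no filter, sex class as covariate, the 2 groups alone, a fold threshold, unadjusted p, controls 15 or 15, 16 and 18 left out, and each pig left out. The tests were tried on simulated data. Members and lists were chosen with earlier results of these data known. Full values are given for members called in any comparison, those with an unadjusted p under 0.05 for Sustanon, Myodin or castration, and the most abundant member of each role; other list genes are named where called, and 1 of them is not reported here. Genes named beyond this rule were picked after their values were seen. No 2 libraries held the same values (at least 9972 genes differed in any pair). Depth limits precision through counting error only; the lowest count of a member in a library was 192 (GPT2).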

Additional observations from a re-analysis of the deposited data

Results flagged for a closer look

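In 93 sets of 8 pigs of a treatment (31 members in 3 treatments), 7 values of 6 pigs lay farther from the other 7 than Dixon's 95% critical value allows. For independent values of a normal distribution, chance alone gives about 1 such value in 20 sets. The sets here mix sex classes and hold genes of the same pigs, so that rate need not hold for them. GLUL, glutamine synthetase, which captures ammonia in the cells around the central vein, had 588.8 CPM in Sustanon castrated boar 3 against 94.6 to 178.4 in the other 7 Sustanon pigs. ARG1 had 348.9 CPM in Sustanon uncastrated boar 19 against 688.8 to 968.2 in the others, the lowest value of any pig. IVD had 366.6 CPM in Sustanon sow 4 against 175.0 to 256.5. GNMT had 2174 CPM in Myodin uncastrated boar 24 against 342.1 to 1207, and GLS2 had 410.4 CPM in Myodin sow 10 against 135.7 to 252.2. In control castrated boar 14, BHMT had 5105 CPM against 2285 to 3585, and GCDH had 391.4 CPM against 223.0 to 302.5. No member's treatment effect differed between uncastrated boars and pigs without testes at an adjusted p under 0.05 by edgeR.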

How the results depend on the processing

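No paired analysis was possible because each number belongs to a single pig and no number recurs in another group. Among the 52 fold changes of members with an unadjusted p under 0.05, none turned its sign under an alternative; those of other genes named were not followed. Except where given above, the share of all genes called in these fits is not given here. A change in a count below therefore cannot be read as a result about the members. For Sustanon against control the 5 calls became 3 without control 15, 0 without controls 15, 16 and 18, 2 with the fold threshold and 12 at unadjusted p, and leaving out each pig in turn gave 3 to 7. BCKDHA, DBT and ARG1 were called in 24 of 24 such fits, HAAO in 16 and TDO2 in 11. Under 8 other settings BCKDHA, DBT and ARG1 were each called in 7, HAAO in 6, TDO2 in 5 and PRODH2 in 1. For Myodin against control the count rose from 0 to 4 at unadjusted p only (0 to 0 with a pig left out). For Sustanon against Myodin the count of 0 became 1 with DESeq2 or the sex class covariate and 8 at unadjusted p, and 0 to 3 with a pig left out. Without testes, the 4 Sustanon calls became 2 without controls 15, 16 and 18, 1 with the fold threshold and 12 at unadjusted p, and 3 to 6 with a pig left out, and under 6 other settings PRODH2 was called in 3, GPT2 in 2 and TDO2 in 1; the 0 Myodin calls became 3 with DESeq2, 5 at unadjusted p and 0 to 2 with a pig left out. The Sustanon interaction kept 0 calls throughout (0 to 0), and the Myodin interaction had 1 with DESeq2, 8 at unadjusted p and 0 to 2 with a pig left out. For uncastrated against castrated boars the 1 call became 2 with DESeq2, RLE, no filter or limma, 0 without control 15 or controls 15, 16 and 18, and 3 at unadjusted p, and 0 to 2 with a pig left out. The causes were not tested, and fits without controls hold fewer pigs.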
